A study of Homo sapiens with 6 samples.

Results

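The tripartite motif (TRIM) genes of the short arm of chromosome 11 around TRIM21 were examined in HT1080, an established human fibrosarcoma cell line, with and without IFNβ. The members are the 8 genes TRIM21, TRIM68, TRIM6, TRIM34, TRIM5, TRIM22, TRIM3 and TRIM66, taken by family name and position, of 62710 genes in the table. RNA from 3 libraries of untreated HT1080 cells and 3 libraries of HT1080 cells given 20 ng/mL IFNβ for 24 h was sequenced. No other gene edit, knockdown or agent is named for either group. The labels and the cell culture methods of the study name human IFNβ for these cells, whereas its RNA sequencing methods name the mouse protein. Levels are FPKM, fragment counts adjusted for the length of the gene and the depth of the library. The fragments each library was divided by were recovered from the values and ranged from 22848104 to 32915500, so that a gene of 1 kb with a single fragment has 0.0304 to 0.0438 FPKM. The study states for its in vitro work in general that replicates were independent, but the labels do not say whether the libraries of a group came from separate cultures. If they did not, the p-values measure only technical spread. The libraries of a group differed by more than counting error (chi-square over its degrees of freedom between 1.77 and 3.38), and none was listed more than once. Of 8 fibroblast-like markers, 6 had a mean of at least 1 FPKM, among them VIM at 399 FPKM in untreated and 325 FPKM in IFNβ-treated cells, SPARC at 267 and 334 FPKM and FN1 at 88.4 and 126 FPKM, whereas FAP was at 0.00790 and 0.0713 FPKM. Of the 7 markers tested, 4 were higher and 1, VIM, was lower at an adjusted p under 0.05 (limma), against 15.2% and 17.5% of all genes tested. Of these markers 0 were DEGs by limma or limma-voom, against 4.22% of all genes tested, and their median log2 fold change was 0.12. The part of these differences in the results was not tested. The 4 epithelial markers summed to 0.256 to 0.445 FPKM in untreated and 0.580 to 0.646 FPKM in IFNβ-treated libraries, mostly from CLDN4, the epithelial marker that could be tested, which rose from 0.314 to 0.575 FPKM (log2 fold change 0.73, adjusted p 0.047, limma). EPCAM was at 0 FPKM in untreated and 0.0191 FPKM in IFNβ-treated cells. The 7 leukocyte and red cell markers summed to at most 0.242 and 0.251 FPKM, with HBA1 at 0 in all libraries. In bulk RNA, a change in the number of cells that express a gene and a change in RNA per cell cannot be told apart.

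TRIM proteins are mostly E3 ubiquitin ligases built from a RING finger, B-box domains and a coiled coil, followed by a C-terminal part that sets the target. In TRIM21, TRIM68, TRIM6, TRIM34, TRIM5 and TRIM22 that part is a B30.2 (SPRY) domain, in TRIM3 it is a set of NHL repeats, and TRIM66 is related to the chromatin-binding TIF1 proteins. Type I interferon acts through ISGF3, a complex that holds STAT2 and IRF9 and binds the interferon-stimulated response element (ISRE) in promoters. Several TRIM genes are known interferon-stimulated genes, and TRIM21, TRIM5 and TRIM22 are studied mainly for antiviral roles.

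The members lie in a stretch of chromosome 11 on GRCh38 in the order TRIM21, TRIM68, TRIM6, TRIM34, TRIM5, TRIM22, TRIM3 and TRIM66 (locations from GENCODE 29). TRIM21 (ENSG00000132109) is at chr11:4384897-4393696 on the minus strand and TRIM68 (ENSG00000167333) at chr11:4598672-4608259 on the minus strand, 204975 bp further on. TRIM6 (ENSG00000121236) at chr11:5596109-5612958 and TRIM34 (ENSG00000258659) at chr11:5619764-5644398 are on the plus strand, 6805 bp apart. TRIM5 (ENSG00000132256) is at chr11:5663557-5938619 on the minus strand. TRIM22 (ENSG00000132274) at chr11:5689689-5737089 lies within that span on the plus strand and shares no exon base with TRIM5. The RefSeq promoter window of TRIM5, at chr11:5685025-5685324, lies at lower coordinates than TRIM22. Read from that start, TRIM5 would not span TRIM22. TRIM3 (ENSG00000110171) is at chr11:6448613-6474459 and TRIM66 (ENSG00000166436) at chr11:8612037-8682694, both on the minus strand and 2137577 bp apart.

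RefSeq promoter windows on GRCh38.p14, from 250 bases before to 50 bases after a transcription start, were given for 7 of the 8 members, with 10 starts in all. TRIM22 had no entry. They were searched on both strands for the ISRE core, which is GAAA, any 2 bases and again GAAA (TTTC in place of GAAA when read on the other strand), and for the gamma-activated site (GAS) TTCNNNGAA, which reads the same on both strands. The windows of TRIM21 (chr11:4393653-4393952, minus strand), TRIM5 (chr11:5685025-5685324, minus strand) and the first start of TRIM34 (chr11:5624751-5625050, plus strand) are shown because they hold ISRE cores, in capitals. Those of TRIM68 (chr11:4608182-4608481, minus strand) and TRIM6 (chr11:5596387-5596686, plus strand), neighbours of TRIM21 and TRIM34, are shown because they hold none. All are written 5′ to 3′ along the gene.
TRIM21: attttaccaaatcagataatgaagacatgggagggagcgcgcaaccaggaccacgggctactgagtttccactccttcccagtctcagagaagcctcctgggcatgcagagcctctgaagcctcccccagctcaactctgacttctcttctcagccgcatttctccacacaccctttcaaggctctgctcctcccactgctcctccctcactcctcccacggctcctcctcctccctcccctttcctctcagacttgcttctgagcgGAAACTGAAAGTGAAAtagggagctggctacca
TRIM5: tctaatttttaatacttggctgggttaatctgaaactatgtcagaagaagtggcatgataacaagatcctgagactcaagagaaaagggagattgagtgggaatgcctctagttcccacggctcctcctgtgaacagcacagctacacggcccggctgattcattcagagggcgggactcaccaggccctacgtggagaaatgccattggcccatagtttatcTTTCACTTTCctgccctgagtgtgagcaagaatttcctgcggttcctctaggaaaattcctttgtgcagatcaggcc
TRIM34: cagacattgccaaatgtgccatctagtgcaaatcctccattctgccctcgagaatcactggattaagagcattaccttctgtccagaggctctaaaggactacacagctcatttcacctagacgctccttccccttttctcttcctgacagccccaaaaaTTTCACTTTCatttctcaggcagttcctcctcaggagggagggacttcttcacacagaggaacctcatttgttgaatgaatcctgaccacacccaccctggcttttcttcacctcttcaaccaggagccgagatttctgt
TRIM68: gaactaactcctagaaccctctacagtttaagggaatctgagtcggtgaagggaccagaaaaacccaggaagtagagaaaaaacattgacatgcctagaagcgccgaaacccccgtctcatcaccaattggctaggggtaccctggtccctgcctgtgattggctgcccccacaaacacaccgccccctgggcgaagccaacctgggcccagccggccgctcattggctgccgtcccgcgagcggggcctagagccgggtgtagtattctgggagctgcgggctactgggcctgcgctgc
TRIM6: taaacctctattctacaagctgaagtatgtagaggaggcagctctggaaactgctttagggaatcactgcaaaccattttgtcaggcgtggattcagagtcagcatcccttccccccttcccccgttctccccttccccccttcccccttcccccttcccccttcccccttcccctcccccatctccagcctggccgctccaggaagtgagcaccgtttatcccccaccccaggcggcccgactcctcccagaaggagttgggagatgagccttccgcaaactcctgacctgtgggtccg

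The TRIM21 window held 2 overlapping ISRE cores, at bases 18 to 27 and 24 to 33 after the start. TRIM5 held 1 ISRE core on the other strand, at bases -27 to -18, and the first TRIM34 start held 1 on the other strand, at bases -90 to -81. The other start of TRIM34 and the windows of TRIM68, TRIM6, TRIM3 and TRIM66, which has 3 starts, held none of these letters. Over all 35116 promoter windows of the same length in the table, 3.57% held at least 1 ISRE core and 0.259% held at least 2. The GAS letters were found in 1 member, TRIM3, at bases -132 to -124, and in 7.66% of all windows. A match of letters is a description and does not show a bound site. The plot of motif matches gives their positions.

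IFNβ-treated and untreated cells were compared with limma on log2(FPKM + 0.1) over the 20716 genes whose FPKM averaged 0.1 or more. Genes with a Benjamini-Hochberg adjusted p under 0.05 whose log2 fold change reached 1 in size were taken as differentially expressed genes (DEGs). TRIM22, TRIM21 and TRIM5 were DEGs and rose with IFNβ, TRIM6 and TRIM66 rose by less than that fold threshold, and TRIM68 and TRIM3 had fold changes near 0. TRIM34 was the member under the filter. Thus 7 of the 8 members were tested, and 3 were called higher and 0 lower by limma and by limma-voom on the recovered fragments, against 3.49% of all genes tested that were called higher. With no fold threshold 5 members were higher, against 15.2% of all genes tested, and the count was also 5 at an unadjusted p under 0.05, against 19.6%. In the same 5 members every IFNβ-treated library lay above every untreated library, which held for 22.3% of all genes tested. The median log2 fold change of the 7 tested members was 0.75, and that of all genes tested was 0.00017.

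TRIM21, also known as Ro52, is a cytosolic antibody receptor that ubiquitinates antibody-coated viruses and is a target of autoantibodies. Its level was 15.2, 15.0 and 14.3 FPKM in untreated cells and 77.0, 76.4 and 77.0 FPKM in IFNβ-treated cells, from 673 to 913 and 3694 to 4586 fragments. The groups were far apart and each varied little, at 14.9 ± 0.467 and 76.8 ± 0.333 FPKM (mean ± S.D., n = 3). The mean rose 5.17-fold, with a log2 fold change of 2.36 ± 0.03 (SE), a 95% interval of 2.30 to 2.43 and an adjusted p of 2.9e-08 (limma). TRIM21 ranked 185 among the genes tested by log2 fold change.

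TRIM5, a restriction factor that binds retroviral capsids, was at 8.99, 8.62 and 8.61 FPKM in untreated cells and 29.8, 30.6 and 29.8 FPKM in IFNβ-treated cells. All IFNβ-treated libraries were above all untreated ones, with 4091 to 4916 against 1099 to 1517 fragments. The means were 8.74 ± 0.216 and 30.1 ± 0.447 FPKM (S.D., n = 3), a 3.44-fold rise with a log2 fold change of 1.77 ± 0.03 (SE), a 95% interval of 1.71 to 1.84 and an adjusted p of 1.1e-07 (limma). Of the exon bases of TRIM5, 7.95% are shared with AC104389.4 on the same strand, a gene at 0.184 FPKM in untreated and 0.233 FPKM in IFNβ-treated cells.

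TRIM22, an antiviral TRIM that lies next to TRIM5 and is its close relative, had the highest fold change of the tested members, which leave out TRIM34. Its level was 3.11, 3.68 and 3.23 FPKM in untreated cells and 48.1, 48.1 and 47.2 FPKM in IFNβ-treated cells, from 892 to 1372 and 15093 to 18603 fragments. The lowest IFNβ-treated library was far above the highest untreated library. The means were 3.34 ± 0.302 and 47.8 ± 0.512 FPKM (S.D., n = 3), a 14.3-fold rise with a log2 fold change of 3.80 ± 0.06 (SE), a 95% interval of 3.66 to 3.95 and an adjusted p of 1.4e-07 (limma), at rank 68 among the genes tested. Of its exon bases, 10.7% are shared with the olfactory receptor gene OR56B1 on the same strand.

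TRIM6 makes free ubiquitin chains with the conjugating enzyme UBE2K and so activates the kinase IKKε in the interferon response. It was at 1.37, 1.22 and 1.30 FPKM in untreated cells and 2.25, 2.17 and 2.33 FPKM in IFNβ-treated cells. The groups did not overlap, with 124 to 170 fragments in untreated and 215 to 275 in IFNβ-treated libraries. The rise from 1.30 ± 0.0725 to 2.25 ± 0.0801 FPKM (S.D., n = 3) was 1.73-fold, with a log2 fold change of 0.75 ± 0.07 (SE), a 95% interval of 0.58 to 0.92 and an adjusted p of 0.00043 (limma), and passed the p threshold only.

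TRIM34 is the neighbour of TRIM6 and acts with TRIM5 against the capsids of some lentiviruses. It was listed at 0, 0.0252 and 0 FPKM in untreated cells and at 0.0486, 0.210 and 0.0389 FPKM in IFNβ-treated cells, which is 0, 2 and 0 fragments against 4, 14 and 3. IFNβ-treated replicate 2 held most of the fragments. The sum of 21 fragments against 2 gave a depth-scaled ratio of 10.6, with an exact 95% interval of 2.59 to 93.2 that covers counting error only. Without that library the sums were 7 and 2, and the ratio of 5.01 had an interval of 0.954 to 49.4. A difference was thus not detectable from the few fragments of the other libraries. The readthrough gene TRIM6-TRIM34 (ENSG00000258588, chr11:5596725-5644398), which covers 83% of the exon bases of TRIM34 and 29.3% of those of TRIM6, was listed at 0 in all 6 libraries. Of 135 readthrough genes in the table, 50 were listed at 0 throughout. How fragments of the shared bases were assigned is not given in the sources used here, and its part in the low level of TRIM34 was not tested.

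TRIM68, a nuclear ubiquitin ligase that interacts with the androgen receptor, is the member nearest to TRIM21. It was at 3.70, 3.46 and 3.81 FPKM in untreated cells and 3.86, 3.61 and 3.61 FPKM in IFNβ-treated cells, from 360 to 534 and 384 to 506 fragments. The groups overlapped, at 3.66 ± 0.180 and 3.70 ± 0.144 FPKM (S.D., n = 3). The log2 fold change was 0.014 ± 0.05 (SE), with a 95% interval of -0.12 to 0.14 and an adjusted p of 0.88 (limma), so the interval holds no change as large as that of TRIM6.

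TRIM3, a TRIM with NHL repeats known mainly from neurons, was at 4.30, 4.53 and 4.46 FPKM in untreated cells and 4.54, 4.25 and 4.54 FPKM in IFNβ-treated cells. The groups overlapped, with 659 to 984 and 713 to 938 fragments. The means were 4.43 ± 0.118 and 4.44 ± 0.165 FPKM (S.D., n = 3), and the log2 fold change was 0.0048 ± 0.04 (SE), with a 95% interval of -0.10 to 0.11 and an adjusted p of 0.95 (limma).

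TRIM66, a chromatin reader with a PHD finger and a bromodomain, was at 1.12, 1.15 and 1.03 FPKM in untreated cells and 1.57, 1.48 and 1.52 FPKM in IFNβ-treated cells. The groups did not overlap, with 419 to 561 and 605 to 792 fragments. The rise from 1.10 ± 0.0623 to 1.52 ± 0.0458 FPKM (S.D., n = 3) was 1.38-fold, with a log2 fold change of 0.44 ± 0.08 (SE), a 95% interval of 0.25 to 0.63 and an adjusted p of 0.0067 (limma). With a pseudocount of 1 the log2 fold change of this low gene was 0.26.

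**Figure D1:**
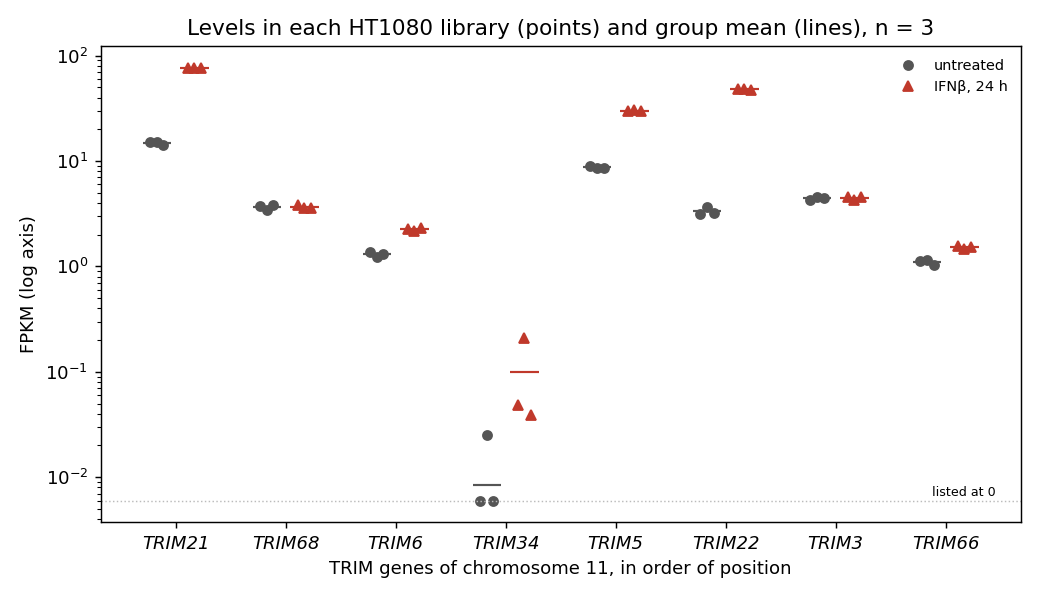
FPKM on a log axis of the 8 members in each untreated (grey circles) and IFNβ-treated (red triangles) library, in order along the chromosome, with lines at the mean of 3 libraries. TRIM21, TRIM5 and TRIM22 are clearly separated between groups, TRIM6 and TRIM66 less so, TRIM68 and TRIM3 overlap, and 2 untreated libraries of TRIM34 are listed at 0.

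**Figure D2:**
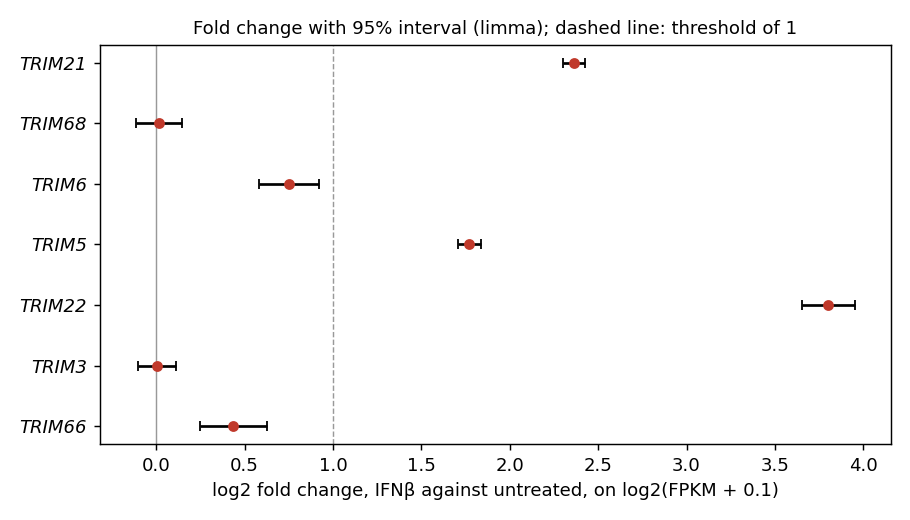
Log2 fold change of the 7 tested members (points) with 95% intervals (bars), on the log2(FPKM + 0.1) scale. The intervals of TRIM22, TRIM21 and TRIM5 lie above the threshold of 1 (dashed line), those of TRIM6 and TRIM66 lie between 0 and 1, and those of TRIM68 and TRIM3 include 0.

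With the lengths in the deposited FPKM, the order of the levels in untreated cells was TRIM21, TRIM5, TRIM3, TRIM68, TRIM22, TRIM6, TRIM66 and TRIM34. Neighbours in that order did not overlap, except TRIM68 at 3.66 FPKM and TRIM22 at 3.34 FPKM. In IFNβ-treated cells TRIM22 stood next to TRIM21, followed by TRIM5, TRIM3, TRIM68, TRIM6, TRIM66 and TRIM34, and no neighbours overlapped. The sum over the 8 members was 37.4 ± 0.569 FPKM in untreated and 167 ± 0.549 FPKM in IFNβ-treated cells (S.D., n = 3). The share of that sum held by TRIM22 was 8.92% in untreated and 28.7% in IFNβ-treated cells, that of TRIM21 was 39.7% and 46.1%, and that of TRIM5 was 23.3% and 18.0%.

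These levels depend on gene length. The deposited values of TRIM22 imply a length of 12556 bp, whereas its exons in GENCODE 29 cover 6020 bp. Scaled by the latter, TRIM22 would be at 6.97 ± 0.629 FPKM in untreated and 99.7 ± 1.07 FPKM in IFNβ-treated cells, above TRIM21 at 77.0 FPKM. In untreated cells TRIM22 would then stand above TRIM3 and TRIM68, at 4.40 and 3.64 FPKM, and TRIM66 at 1.54 FPKM above TRIM6 at 1.30 FPKM, while TRIM6 and TRIM66 would overlap in IFNβ-treated cells. The share of the sum held by TRIM22 would be 16.4% in untreated and 44.8% in IFNβ-treated cells, that of TRIM21 35.1% and 34.6%, and that of TRIM5 22.9% and 15.0%. The rise in the share of TRIM21 therefore turns with the lengths used, and TRIM22 in place of TRIM21 would hold the largest share in IFNβ-treated cells. The implied length was 1.40 times the GENCODE 29 length for TRIM66 and 1.11 times for TRIM5. Fold changes within a gene do not depend on its length, apart from the pseudocount.

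To test whether members next to each other responded differently, the log2 ratio of their FPKM was taken within each library for the 6 pairs of tested members along the chromosome. None of the 6 ratios overlapped between groups, and each reached a two-sided exact permutation p of 0.10, the smallest that 3 against 3 libraries allow. The Benjamini-Hochberg adjusted value was 0.10 over the pairs. The share of other gene pairs that separate in this way was not determined, so this count has no background. Among single genes tested, 22.3% had every IFNβ-treated library above every untreated library. That share is of genes and not of ratios, and it leaves out separation downward, whereas some of the ratios fell. The ratio of TRIM21 to TRIM68 was 4.06 in untreated and 20.8 in IFNβ-treated cells, a difference in the log2 ratio of 2.36 ± 0.07 (SE). The ratio of TRIM22 to TRIM3 went from 0.753 to 10.8, a difference of 3.84 ± 0.07. The ratios depend on the lengths used, and with GENCODE 29 lengths TRIM22 was above TRIM3 in both groups, whereas their differences between groups do not. TRIM5 exceeded TRIM22 2.62-fold in untreated cells, and was at 0.629 of TRIM22 in IFNβ-treated cells, a difference of -2.06 ± 0.09. With GENCODE 29 lengths the order of both genes was the same, at 9.73 FPKM for TRIM5 and 6.97 FPKM for TRIM22 in untreated cells and 33.5 and 99.7 FPKM in IFNβ-treated cells. The differences of TRIM68 to TRIM6, TRIM6 to TRIM5 and TRIM3 to TRIM66 were -0.78 ± 0.05, -0.99 ± 0.05 and -0.46 ± 0.05.

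Members with fold changes near 0 lay between members that were higher in IFNβ-treated cells, TRIM68 between TRIM21 and TRIM6, and TRIM3 between TRIM22 and TRIM66. The nearest tested protein-coding gene below TRIM21 and TRIM68 was RRM1, a subunit of ribonucleotide reductase, which fell from 58.1 ± 1.92 to 43.0 ± 0.677 FPKM (S.D., n = 3; log2 fold change -0.43, adjusted p 9.3e-05). On their other side was HBG2, a fetal globin gene whose annotated span crosses the olfactory receptor cluster, which fell from 3.66 to 1.90 FPKM (log2 fold change -0.90, adjusted p 0.012). AC104389.4, next to TRIM6, TRIM34, TRIM5 and TRIM22, had a log2 fold change of 0.27 with an adjusted p of 0.52, and C11orf42, on the far side of TRIM5 and TRIM22, had -0.31 with an adjusted p of 0.68. ARFIP2, whose span ends 224 bp from that of TRIM3, was at 19.9 and 19.2 FPKM (adjusted p 0.17), and APBB1, on the other side of TRIM3, was at 3.74 and 3.66 FPKM (adjusted p 0.68). RPL27A, a ribosomal protein gene that overlaps 0.8% of the exon bases of TRIM66 on the opposite strand, decreased from 96.5 to 73.2 FPKM (log2 fold change -0.40, adjusted p 0.00044), and STK33, on the other side of TRIM66, had a log2 fold change of -0.05 with an adjusted p of 0.80.

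Between TRIM21 and TRIM66 lie 211 other genes of the table beside the readthrough gene, of which 41 were tested. Their median log2 fold change was -0.17, with 1 DEG higher and 2 lower. The DEG that was higher was AC091053.2, an antisense gene within the span of TRIM66, with 2 to 5 fragments in untreated and 7 to 12 in IFNβ-treated libraries. Those that were lower were the pseudogene OR51AB1P, with 13 to 17 and 2 to 6 fragments, and the lincRNA AC027804.1, with 7 to 14 and 1 to 4 fragments. Leaving out IFNβ-treated replicate 1 or replicate 3 left 1 call in the interval, and limma-voom called 0 higher and 2 lower. None of the 30 tested protein-coding genes in the interval other than the members was a DEG (limma), and limma-voom on the recovered fragments also called 0. Of these genes, 2 were higher and 10 lower with no fold threshold, and 2 and 11 at an unadjusted p under 0.05. Over all genes tested, 4.22% were DEGs in either direction, 15.2% were higher and 17.5% lower with no fold threshold, and 19.6% and 22.0% at an unadjusted p under 0.05. Rows of olfactory receptor and globin genes had a median log2 fold change of -0.62 over 14 tested. Among them OR51B4 fell from 17.2 to 9.36 FPKM (adjusted p 2e-06) and OR51B5 from 20.9 to 11.3 FPKM (adjusted p 5.8e-05), both named after their values were seen.

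**Figure D3:**
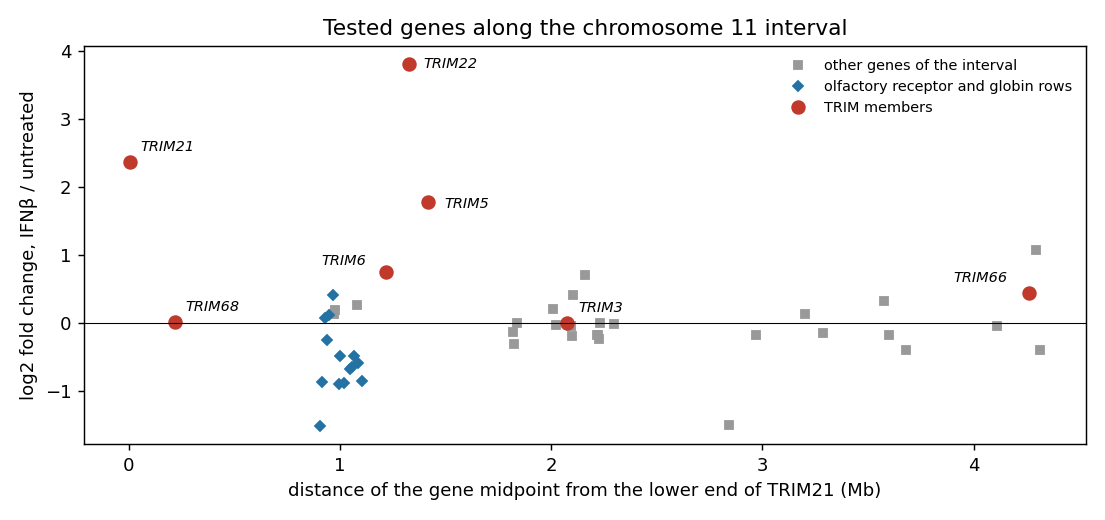
Log2 fold change of the tested genes from TRIM21 to TRIM66 against the distance of their midpoint from the lower end of TRIM21, in Mb. By midpoint TRIM22 comes before TRIM5, whereas the text orders the members by their lower ends. TRIM22, TRIM21 and TRIM5 (red circles) stand at 3.80, 2.36 and 1.77, while the median of the 41 other genes (grey squares and blue diamonds) is -0.17.

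The members share sequence as a family. Whether this affects how reads were divided between them was not tested. Coding sequences from GENCODE 29 were 66.7% identical between TRIM5 and TRIM22, 69.0% between TRIM6 and TRIM34, 74.4% between TRIM34 and TRIM22 and 57.4% between TRIM21 and TRIM5, counting gaps. Exact words of 50 bases shared in the same sense were found in 3 of the 28 pairs of members. TRIM6 and TRIM5 shared 14 such words, 0.325% of those of TRIM6 and 0.276% of those of TRIM5, while TRIM6 and TRIM34, and TRIM34 and TRIM5, shared 1 each. TRIM21, TRIM22, TRIM68 and TRIM3 shared none with another member.

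The TRIM genes elsewhere in the genome were taken as a list of 69, of which 43 were tested. Of these, 7 were DEGs that rose and 0 were DEGs that fell, also by limma-voom, against 3.49% of all genes tested that were called higher, and their median log2 fold change was 0.10, against 0.75 over the tested members. TRIM69 rose from 1.63 to 11.6 FPKM (log2 fold change 2.76), PML, the organiser of nuclear bodies, from 7.46 to 33.3 FPKM (2.14), TRIM14, an adaptor of antiviral signalling, from 12.6 to 51.7 FPKM (2.03) and TRIM38 from 3.33 to 13.3 FPKM (1.96). TRIM25, a ligase of the RIG-I pathway, rose from 15.8 to 37.0 FPKM (1.23), TRIM26 from 12.2 to 26.0 FPKM (1.09) and TRIM56 from 6.97 to 14.2 FPKM (1.01). The log2 fold change of TRIM22, 3.80, was above that of all of these. TRIM8 was at 23.3 and 25.3 FPKM (0.11, adjusted p 0.0047). With no fold threshold 12 genes of the list were higher and 4 lower, against 15.2% and 17.5% of all genes tested, and 17 and 5 at an unadjusted p under 0.05, against 19.6% and 22.0%.

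STAT2 and IRF9, subunits of ISGF3, and the transcription factor IRF1 were DEGs that rose. In the ISGF3 and partner lists together 4 genes were called, but 3 with a pseudocount of 1 and 3 with a filter at a mean of 1 FPKM. STAT2 went from 3.88 to 40.6 FPKM (log2 fold change 3.35, adjusted p 8.5e-09), IRF9 from 0.136 to 1.53 FPKM (2.79, adjusted p 4.9e-05) and IRF1 from 1.84 to 4.37 FPKM (1.21, adjusted p 0.0002).

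Of 13 genes of partners of TRIM21, all tested, 0 were DEGs by limma or limma-voom, against 4.22% of all genes tested. With no fold threshold 2 were higher and 4 lower, against 15.2% and 17.5% of all genes tested, and at an unadjusted p under 0.05 these were 3 and 5, against 19.6% and 22.0%. RO60, the autoantigen found with TRIM21 in the Ro complex, was at 6.02 ± 0.151 and 6.01 ± 0.0597 FPKM (S.D., n = 3, adjusted p 0.98). SSB, which encodes the La autoantigen, fell from 30.0 to 27.0 FPKM (log2 fold change -0.15, adjusted p 0.029). UBE2N and UBE2V2, which together build ubiquitin chains with TRIM21, fell by 0.13 and 0.36 on the log2 scale (adjusted p 0.0077 and 0.00037). IRF3, a substrate of TRIM21, rose from 8.15 to 12.3 FPKM (log2 fold change 0.59, adjusted p 1.8e-05).

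Of 9 partners of TRIM5 and TRIM6, all tested, 0 were DEGs by limma or limma-voom, against 4.22% of all genes tested. With no fold threshold 3 were higher and 4 lower, against 15.2% and 17.5% of all genes tested, and at an unadjusted p under 0.05 these were 3 and 5, against 19.6% and 22.0%. PPIA, which encodes cyclophilin A, a capsid-binding protein, fell from 193 to 179 FPKM (log2 fold change -0.11, adjusted p 0.021). UBE2K, the conjugating enzyme of TRIM6, fell from 33.5 to 26.1 FPKM (-0.36, adjusted p 0.00035). IKBKE, the gene of IKKε, rose from 6.02 to 8.73 FPKM (0.53, adjusted p 0.00018).

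Genes whose pattern over the 6 libraries lay near that of TRIM21 were found among 11995 genes with a mean of at least 1 FPKM, by the Euclidean distance of log2(FPKM + 0.1) after subtracting the untreated mean. Among the 5 nearest were APOBEC3F, a cytidine deaminase, at a distance of 0.142, the interferon-inducible GTPase GBP2 at 0.176, the aminopeptidase LAP3 at 0.197 and PHF11 at 0.204. LAP3 was also at a like level, with 15.4 and 85.7 FPKM against 14.9 and 76.8 FPKM for TRIM21. These distances are a description over the same libraries and carry no test.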

How the data were processed

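Per the labels, total RNA of HT1080 cells was sequenced as paired reads, and the submitters' processing notes name fastp, HISAT2, StringTie and the build GRCh38, with no versions. The authors enriched mRNA, used DESeq2 for their own comparison and deposited FPKM for each gene and library. The gene lengths and strandedness used are not given in the sources used here, and 4436 gene IDs are not in GENCODE 29. Whole fragments were recovered for 100% of the 35303 genes above 0, to a relative tolerance of 1e-09.

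The main test was limma 3.58.1 (R 4.3.3) with an intensity trend on log2(FPKM + 0.1), with no covariate, a filter of a mean FPKM of 0.1 and adjustment over all 20716 genes tested. Intervals of count ratios are exact, at 95%. The procedure was tested on simulated data, where it recovered most changed genes and also called some unchanged ones. Python 3.11.15 (pandas 2.3.3, scipy 1.17.1) was used otherwise. The members, gene lists and named genes (members, readthrough gene, nearest neighbours, DEGs of the lists and interval, key partners, the 5 genes most like TRIM21) were chosen with earlier results of these data known, and some of these genes are not reported here. Alternatives were other pseudocounts, filters, scalings, thresholds, no trend, a replicate block, limma-voom on recovered fragments and each library left out.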

Additional observations from a re-analysis of the deposited data

How the results depend on the processing

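The number of members called remained at 3 under 17 of 18 alternatives and was 5 with no fold threshold. TRIM21, TRIM5, TRIM22, TRIM6 and TRIM66 kept their direction and their side of both thresholds in 16 alternative fits each, with log2 fold changes of 2.30 to 2.38 for TRIM21, 1.68 to 1.79 for TRIM5, 3.49 to 3.87 for TRIM22, 0.50 to 0.80 for TRIM6 and 0.26 to 0.48 for TRIM66. TRIM68 and TRIM3 passed no threshold in any of them and changed sign with quantile normalization, at -0.019 and -0.027, and ranged from -0.024 to 0.044 and from -0.016 to 0.035 without 1 library. With no filter, TRIM34 had a log2 fold change of 0.78 (adjusted p 0.21, limma). Leaving out each library in turn gave changes in the log2 ratio of 2.30 to 2.40 for TRIM21 to TRIM68 and 3.80 to 3.89 for TRIM22 to TRIM3. No scaling moved the median of all genes tested by over 0.1. Of the other genes of the interval, 3 were called as reported, 0 with a pseudocount of 1, 0 with a filter at a mean of 1 FPKM, 0 with an adjusted p under 0.01, 16 with no fold threshold and 1 to 4 without 1 library, and the 3 reported calls rest on under 20 fragments per library. With no fold threshold, 16 other TRIM genes and 16 genes of the partner and ISGF3 lists were called, and 6 to 7 and 4 to 4 without 1 library. These counts were 6 and 3 with a pseudocount of 1, 7 and 3 with a filter at a mean of 1 FPKM, and 6 and 4 with quantile normalization.

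The labels do not say that a replicate number marks a shared culture or day, so the main test did not pair the libraries. Around their group means, same-numbered libraries correlated at 0.014 to 0.031 and those with other numbers at -0.029 to 0.006. Each library correlated best with its own number, but correlations this small cannot decide whether the numbers mark pairs. With the replicate number as a block, 3 members were called, the adjusted p was 1.5e-05 for TRIM21, 4.2e-05 for TRIM5, 2.8e-05 for TRIM22, 0.0041 for TRIM6 and 0.030 for TRIM66, and 1 other gene of the interval was called in place of 3. The few fragments of TRIM34 limit its comparison, and 3 libraries per group limit the tests of ratios.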
